A study of Mus musculus with 6 samples.

Results

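Imprinted genes are expressed mainly from the copy inherited from one parent. A differentially methylated region set in the egg or the sperm marks the parental origin at each cluster, and in the embryo it is kept by DNA methyltransferases and by zinc finger proteins such as ZFP57. Many imprinted genes act on fetal growth and the placenta, and in mouse embryonic stem cells (mESCs) the imprints can be lost or altered in culture. A list of 37 such genes outside the Dlk1-Dio3 locus was looked up by gene symbol in the deposited count tables, and 35 of them were found among the 39017 genes. The other two, Kcnq1ot1 and Peg13, are non-coding RNAs that stand under no row of that symbol and were not analysed here. The counts do not separate the parental alleles, so they give the summed mRNA of both copies and no information on imprinting itself.

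The data were polyA RNA-Seq of 6 libraries in 3 groups of 2. In the untreated group, Pol II degron mESCs of the V6.5 line carried the mAID-GFP tag on RPB1, the largest Pol II subunit, and 1 μg/ml doxycycline for 12 h had induced OsTIR1, the plant F-box protein that marks tagged proteins for degradation once auxin is present. The auxin group received the same doxycycline and then 500 μM auxin (indole-3-acetic acid) for 6 h. The third group was labelled as V6.5 mESCs that are wild type for Pol II, and whether these cells received doxycycline is not given in the sources used here. The degron line was a clone picked for efficient degradation. The mESCs were grown on irradiated mouse embryonic fibroblasts (feeders) and harvested after passages of the feeders that the study's methods name as a step before the experiments, and some feeder RNA may remain in the libraries. The extraction text of the wild-type records names retinas. The libraries held 14094022 to 15358714 counted reads each. The study's methods state that its high-throughput experiments had biological replicates, but nothing in the labels ties these libraries to separate cultures, so the p-values measure the spread between these libraries, which may be technical. The degron acts on the RPB1 protein, so no mRNA count checks the depletion.

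The marker genes of the other cell types were measured beside the members, as summed CPM (counts per 1000000 reads) after TMM scaling, which takes the typical gene as unchanged. The 12 feeder fibroblast markers summed to 355 to 369 CPM in untreated and 394 to 435 CPM in auxin-treated libraries, and 1 of the 11 tested was called higher (Col1a2, log2 fold change 0.36) and 0 lower. In the comparison with wild-type cells they summed to 346 to 359 CPM in untreated and 208 to 210 CPM in wild-type libraries. Of the 11 tested, 7 were called lower and 1 higher. These markers did not move together, with log2 fold changes of −1.51 for Acta2, 0.01 for Col1a1 and 1.07 for Postn. Lum was at 0 counts in every untreated and auxin-treated library, whereas Col1a1, Col1a2 and Acta2 had at least 938, 951 and 1823 counts in each. The 9 pluripotency markers stood at 4188 to 4783 CPM in untreated and 7184 to 7275 CPM in wild-type libraries, and of the 10 retina markers Crx and Rcvrn were at 0 in every library, while all 10 together came to 7.95 to 7.96 CPM in wild-type libraries. The 7 primitive endoderm markers went from 27.1 to 29 CPM in untreated to 63.3 to 65.5 CPM in wild-type libraries, all 7 called higher. Of the trophoblast markers 5 were tested, with 0 higher and 1 lower after auxin (Tfap2c, −0.61) and 2 higher and 3 lower in wild-type cells. After auxin 4 of 9 pluripotency markers were lower (Zfp42, Sox2, Nanog and Esrrb, from −0.78 to −0.54) and 0 higher, and no primitive endoderm or retina marker was called, of 6 and 3 tested. In wild-type cells 6 pluripotency markers were higher and 1 lower, and of 2 retina markers tested 1 was higher and 1 lower. Of all genes tested, 2.56% were called higher and 1.64% lower after auxin, and 29.9% and 30.7% in wild-type cells. In bulk RNA, fewer cells of a type and less RNA per cell cannot be told apart. The part of these cell types in the values below was not tested.

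Sequences before the starts of some members are shown because the genes beside them are compared below. Peg3 and Usp29 on chromosome 7 start back to back, and the 146 bases between them are printed whole. Magel2, Mkrn3 and Peg12 lie near each other on chromosome 7 with separate starts, and the 250 bases before each start are printed. All are from RefSeq (GRCm38.p6), written 5′ to 3′ on the strand named. Capitals mark the CCAAT box (CCAAT, or ATTGG on the other strand) and the core of the YY1 site (ATGGCG), which were looked for after the sequences had been seen.
Peg3-Usp29 interval, chr7:6730432-6730577, plus strand: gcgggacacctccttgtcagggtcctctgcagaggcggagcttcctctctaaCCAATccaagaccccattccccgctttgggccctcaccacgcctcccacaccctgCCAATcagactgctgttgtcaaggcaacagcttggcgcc
Magel2, chr7:62376729-62376978, plus strand: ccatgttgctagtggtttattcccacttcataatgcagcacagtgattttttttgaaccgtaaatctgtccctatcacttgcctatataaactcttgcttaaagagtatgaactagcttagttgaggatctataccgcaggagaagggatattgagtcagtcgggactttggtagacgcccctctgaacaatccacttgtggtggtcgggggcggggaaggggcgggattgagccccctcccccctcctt
Mkrn3, chr7:62420154-62420403, minus strand: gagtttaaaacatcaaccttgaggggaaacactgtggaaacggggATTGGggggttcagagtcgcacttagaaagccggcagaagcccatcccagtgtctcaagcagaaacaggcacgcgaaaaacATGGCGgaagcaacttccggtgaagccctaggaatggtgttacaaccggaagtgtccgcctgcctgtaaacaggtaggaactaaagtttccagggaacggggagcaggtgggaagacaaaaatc
Peg12, chr7:62464511-62464760, minus strand: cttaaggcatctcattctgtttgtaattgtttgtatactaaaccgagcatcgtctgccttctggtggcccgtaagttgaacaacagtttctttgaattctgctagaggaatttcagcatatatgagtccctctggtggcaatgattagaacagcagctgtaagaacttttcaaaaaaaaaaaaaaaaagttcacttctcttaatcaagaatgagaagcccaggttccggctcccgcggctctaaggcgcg

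The Peg3-Usp29 interval held 2 CCAAT boxes and 61.6% G and C. A CCAAT box was found in 24% of windows of that length over the 32851 promoters of the table, both strands searched. The Mkrn3 window held 1 CCAAT box and 1 YY1 core, which 33.8% and 5.73% of the 250-base windows hold. The Magel2 and Peg12 windows held neither. The hexamer TGCCGC, which ZFP57 binds when it is methylated, and the NRF1 motif (GCGCA, any base, then GCGC) were in none of the 4 windows, compared with 8.68% and 3.74% of all 250-base windows and 5.81% and 3.04% of the 146-base windows. These are matches of letters only. Of the 37 genes, 30 had an entry in the promoter table.

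Of the 35 genes, few were called after 6 h of auxin, and most were called between wild-type and untreated degron cells. Higher and lower are relative to the typical gene, which TMM scaling takes as unchanged, so a general change in mRNA would not show. With 2 libraries per group, a gene that was not called may still have changed. Calls are at an adjusted p under 0.05 in edgeR's quasi-likelihood test, adjusted over all genes tested by the Benjamini-Hochberg method, and all 35 passed the filter on low counts in both comparisons. After auxin, Magel2, Gnas and Peg3 were called higher. These are 3 of 35 members (8.57%), beside 2.56% of all 16128 genes tested. None was called lower, beside 1.64% of all genes. At an unadjusted p under 0.05, 2 members were lower and 10 higher. The share of all genes under that threshold was not counted, so these numbers show no excess among the members. DESeq2 called 2 higher and 0 lower. The median log2 fold change of the members was 0.06, and that of all genes tested was 0.00. The 11 feeder fibroblast markers tested had a median of 0.28, and their part in the members' values was not tested.

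In wild-type cells, 6 members were higher and 18 lower than in untreated degron cells, and 11 were not called. The wild-type libraries were deposited apart from the others and may be of another batch. Effects of the tag, the OsTIR1 cassette, the clone, doxycycline and a batch cannot be told apart in this comparison. All genes were called often in this comparison, 29.9% of 15778 higher and 30.7% lower, and the members' shares were 17.1% and 51.4%. With 1 library left out in turn, 4 to 8 members were called higher and 13 to 18 lower. The higher ones were Grb10, Usp29, Peg12, Ube3a, Phlda2 and Slc38a4. The median log2 fold change of the members was −0.25, and that of all genes tested was −0.01, while the feeder fibroblast markers had a median of −0.66, whose part was not tested. The members were also classed by the parental copy they are known to be expressed from, which these counts do not show for these cells. Grb10, Ube3a, Gnas, Inpp5f, Trappc9 and Commd1, whose imprint depends on cell type or isoform, are in neither class. Of the 19 members classed as paternal, 13 were lower and 3 higher, with a median of −0.82. Of the 10 classed as maternal, 4 were lower and 1 higher, with a median of 0.02. This difference between the classes was not tested. The untreated libraries serve both comparisons, so each gene's values stand side by side below without a test between the comparisons.

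**Figure D1:**
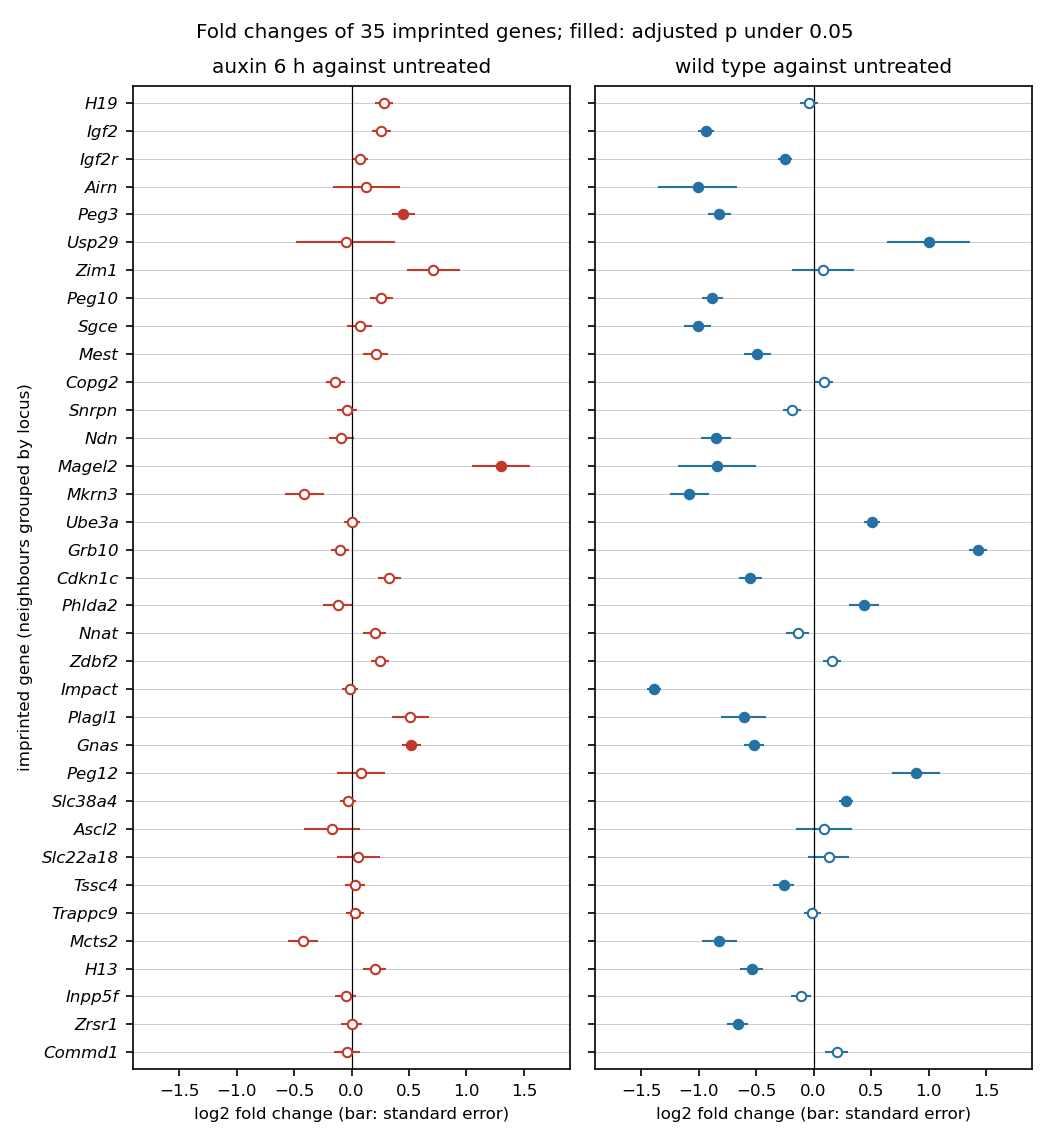
Log2 fold changes of the 35 imprinted genes after auxin (left) and in wild-type cells (right) against untreated degron cells, with bars for the standard error and filled points for an adjusted p under 0.05 (edgeR). Magel2, Gnas and Peg3 are the 3 filled points on the left, and 24 points are filled on the right, from Impact at −1.39 to Grb10 at 1.43.

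The members spanned a wide range of levels. Levels between genes were compared per length, as RPKM (reads per kilobase of merged GENCODE vM21 exons per 1000000 counted reads). In untreated cells the highest was Peg10, a retrotransposon-derived gene needed for the placenta, at 90.8 ± 16.6 RPKM (SD, n = 2). The amino acid transporter Slc38a4 followed at 62.3 ± 2.88, the growth factor Igf2 at 59.7 ± 7.17 and Impact at 56.7 ± 0.696 RPKM (SD, n = 2 each). The spread of Igf2 covered the means of Slc38a4 and Impact, whose own ranges of 1 SD did not meet. Zim1 (0.345 ± 0.0576) and Usp29 (0.0499 ± 0.0151 RPKM, SD, n = 2) were the lowest.

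**Figure D2:**
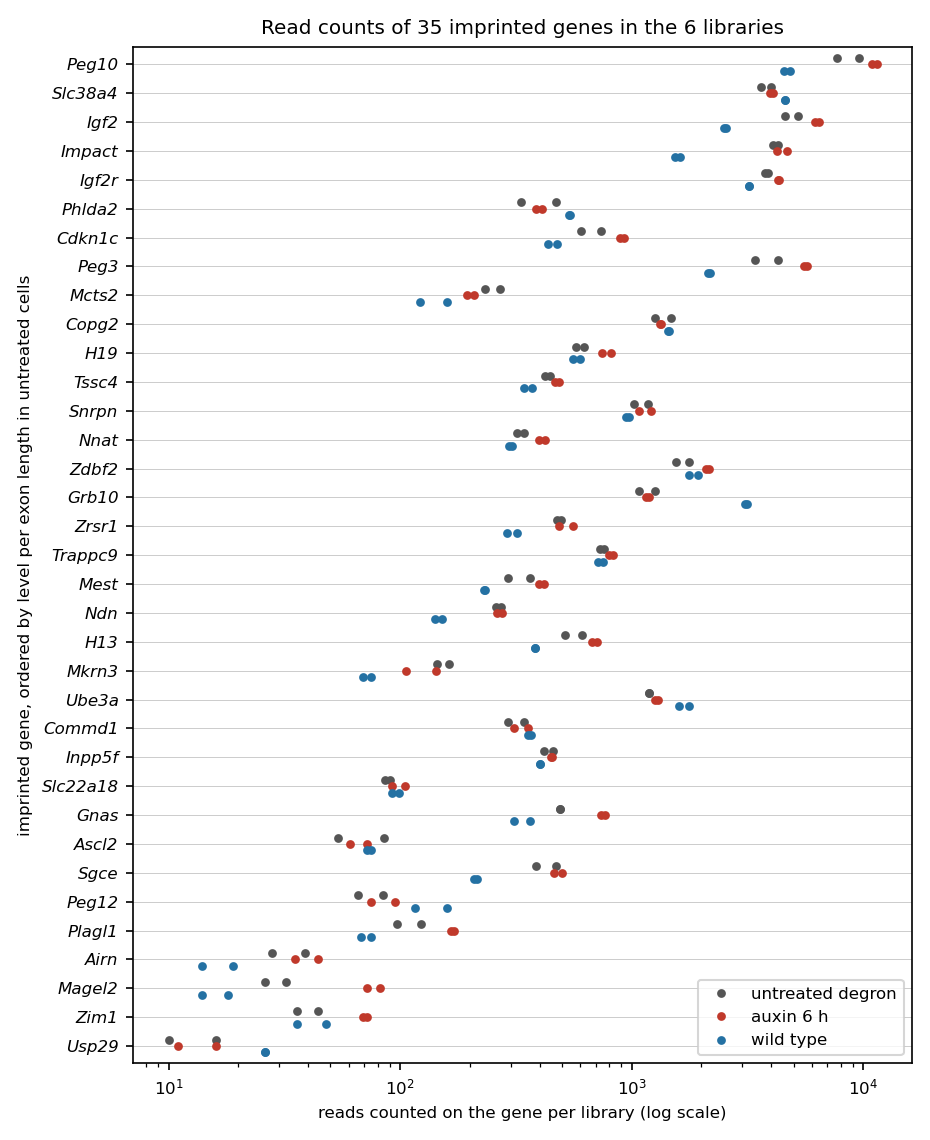
Reads counted on each of the 35 imprinted genes in every library (log scale), ordered by level per exon length in untreated cells, with 1 point per library and a colour per group. Counts run from 10 for Usp29 in an untreated library to 11416 for Peg10 in an auxin-treated one, and the wild-type points of Impact lie to the left of the other groups while those of Grb10 lie to the right.

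At the Igf2-H19 locus, on the minus strand of chromosome 7, the paternally expressed growth factor Igf2 and the maternally expressed non-coding RNA H19 share enhancers. Igf2 had 5223 and 4569 counts in untreated, 6202 and 6441 in auxin-treated and 2544 and 2507 in wild-type libraries. The 3 groups did not overlap. After auxin the log2 fold change was 0.26 (standard error, SE, 0.08, adjusted p = 0.0858), which was not called. In wild-type cells Igf2 fell by 0.94 (SE 0.07, adjusted p = 8.90e-07), from 335 ± 35 CPM to 174 ± 2.93 CPM (SD, n = 2). H19 had 621 and 573 counts in untreated, 811 and 746 in auxin-treated and 558 and 596 in wild-type libraries. The untreated and wild-type libraries of H19 overlapped. Its log2 fold changes were 0.28 after auxin (adjusted p = 0.0818) and −0.04 in wild-type cells (adjusted p = 0.698), neither called. With 1 library left out in turn, the log2 fold change after auxin was 0.16 to 0.38 for Igf2 and 0.21 to 0.35 for H19.

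Igf2r encodes the receptor that carries IGF2 to lysosomes and so removes it, and Airn is the paternal transcript that runs antisense through it on chromosome 17. Igf2r had 3763 and 3887 counts in untreated, 4268 and 4334 in auxin-treated and 3203 and 3199 in wild-type libraries. The wild-type libraries were the lowest, at 221 ± 1.63 CPM compared with 262 ± 3.36 CPM (SD, n = 2), a log2 fold change of −0.25 (SE 0.06, adjusted p = 0.00297). Without wild-type replicate 1 or 2 this call was lost (adjusted p = 0.066 and 0.0883). Airn had 39 and 28 counts in untreated, 44 and 35 in auxin-treated and 14 and 19 in wild-type libraries. Its untreated and auxin-treated libraries overlapped, with a log2 fold change of 0.13 (adjusted p = 0.851). In wild-type cells Airn was lower by edgeR, with a log2 fold change of −1.01 (SE 0.34, adjusted p = 0.0239), and it was not called by DESeq2 (adjusted p = 0.168), with no filter (0.065), without untreated replicate 1 (0.136) or without wild-type replicate 1 (0.13). Reads on unspliced Airn that fall in Igf2r introns are on no exon of either gene, so the Airn counts cover its annotated exons only.

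Grb10, an adaptor that limits insulin and IGF signalling, was the member most raised in wild-type cells. It had 1072 and 1262 counts in untreated, 1150 and 1191 in auxin-treated and 3161 and 3097 in wild-type libraries. Both wild-type libraries stood far above the other 4. The log2 fold change was 1.43 (SE 0.08, adjusted p = 4.86e-08), from 79.8 ± 8.38 CPM to 216 ± 4.52 CPM (SD, n = 2), and it was −0.10 after auxin (adjusted p = 0.553).

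Cdkn1c, Phlda2, Ascl2, Slc22a18 and Tssc4 lie in the Kcnq1 domain of chromosome 7, where the non-coding RNA Kcnq1ot1 silences the paternal copies. Cdkn1c, the cell cycle inhibitor p57, had 740 and 603 counts in untreated, 925 and 889 in auxin-treated and 435 and 474 in wild-type libraries. The groups did not overlap, with a log2 fold change of 0.33 after auxin (adjusted p = 0.0744) and −0.55 in wild-type cells (SE 0.10, adjusted p = 0.000765). Only the fall in wild-type cells was called. Phlda2, which restrains placental growth, had 331 and 471 counts in untreated, 409 and 385 in auxin-treated and 534 and 544 in wild-type libraries. It was higher in wild-type cells by 0.44 (SE 0.13, adjusted p = 0.0109), but not when no filter was used (adjusted p = 0.107). The log2 fold change was 0.22 without untreated replicate 1 and 0.70 without untreated replicate 2. The neighbours therefore moved in opposite directions in wild-type cells. Tssc4 had 442 and 423 counts in untreated, 466 and 483 in auxin-treated and 343 and 372 in wild-type libraries, with a log2 fold change of −0.26 in wild-type cells (adjusted p = 0.0227) that was not called by DESeq2 (0.188), with no filter (0.0604), or without untreated replicate 1 (0.0619), wild-type replicate 1 (0.21) or wild-type replicate 2 (0.064). The trophoblast factor Ascl2 and the transporter Slc22a18 had 54 to 85 and 86 to 105 counts over all libraries and were called in neither comparison.

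The Peg3 cluster on chromosome 7 holds Peg3 and Usp29, both paternal and started from the interval printed above in opposite directions, and the maternal Zim1. Peg3, a zinc finger protein that in mice affects growth and maternal behaviour, had 4299 and 3394 counts in untreated, 5701 and 5566 in auxin-treated and 2172 and 2144 in wild-type libraries. The auxin-treated libraries were the highest and the wild-type libraries the lowest. After auxin Peg3 rose from 270 ± 47.6 CPM to 368 ± 0.611 CPM (SD, n = 2), a log2 fold change of 0.45 (SE 0.10, adjusted p = 0.023). The log2 fold change was 0.64 without untreated replicate 1 and 0.28 without untreated replicate 2. Without auxin replicate 1 or 2 the adjusted p was 0.0879 and 0.122, with no filter 0.163, and scaled to the mitochondrial mRNAs, on which the median of all genes fell by 0.17, it was 0.555. In wild-type cells Peg3 was lower, with a log2 fold change of −0.82 (SE 0.10, adjusted p = 2.21e-05). Usp29, a deubiquitinase gene, had only 10 and 16 counts in untreated, 16 and 11 in auxin-treated and 26 and 26 in wild-type libraries. In wild-type cells it was higher, with a log2 fold change of 1.00 (SE 0.36, adjusted p = 0.0313), so that the genes on either side of the interval differed in opposite directions. The Usp29 call rests on few counts and was lost with DESeq2 (adjusted p = 0.221), with no filter (0.0631), without untreated replicate 1 (0.154) and without wild-type replicate 1 or 2 (0.0783 and 0.0789). Zim1 had 36 to 72 counts over all libraries and a log2 fold change of 0.71 after auxin (SE 0.23, adjusted p = 0.106), which was not called.

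Peg10 and Sgce, an epsilon-sarcoglycan gene, are both paternal and also start back to back, on chromosome 6. Peg10 had 9629 and 7703 counts in untreated, 10916 and 11416 in auxin-treated and 4552 and 4819 in wild-type libraries. Sgce had 471 and 386 counts in untreated, 500 and 464 in auxin-treated and 215 and 208 in wild-type libraries. Both were lower in wild-type cells, and for both genes the wild-type libraries lay below all untreated ones. The log2 fold change was −0.88 for Peg10 (SE 0.09, adjusted p = 1.06e-05) and −1.01 for Sgce (SE 0.12, adjusted p = 2.29e-05). After auxin they were 0.26 and 0.07 and not called (adjusted p = 0.16 and 0.797).

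**Figure D3:**
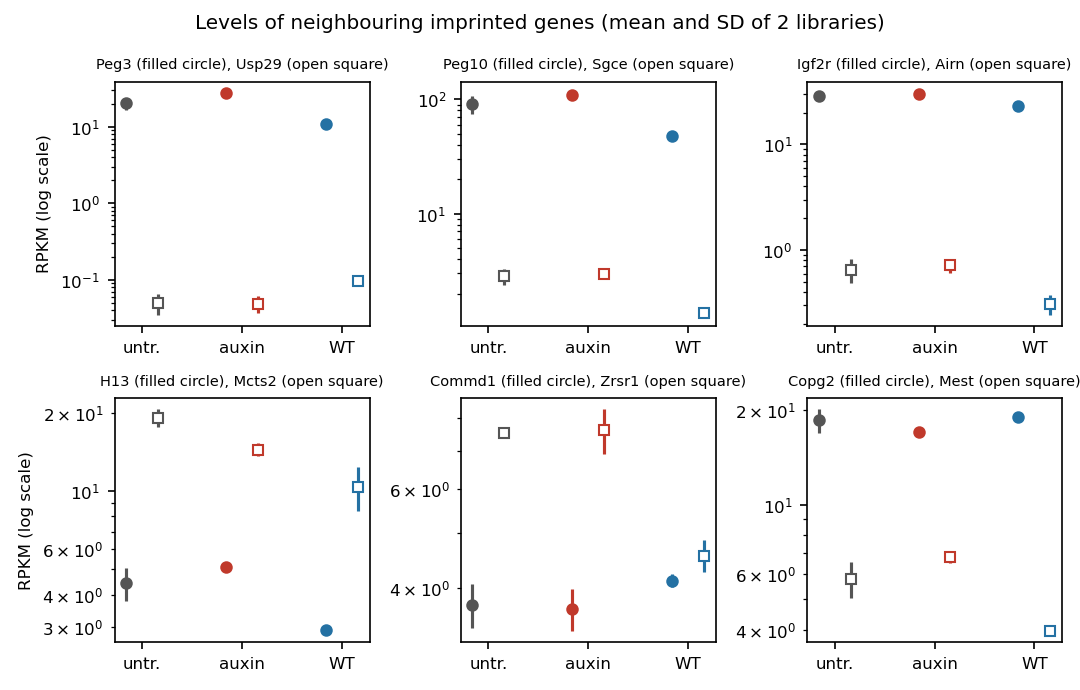
Level per length (RPKM, log scale, a different range in each panel) of 6 pairs of neighbouring imprinted genes in untreated, auxin-treated and wild-type cells, as the mean with the SD of 2 libraries. Peg10 and Sgce both stand lowest in wild-type cells, whereas Usp29 stands highest there and Peg3 lowest.

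The Snrpn-Ube3a cluster on chromosome 7, whose human counterpart is the Prader-Willi and Angelman region, gave the member most raised by auxin. Magel2, a gene of a single exon that encodes an adaptor of a ubiquitin ligase, had 32 and 26 counts in untreated, 72 and 82 in auxin-treated and 18 and 14 in wild-type libraries. The 3 groups did not overlap. Its level went from 2.04 ± 0.318 CPM to 5.03 ± 0.539 CPM (SD, n = 2) after auxin, a log2 fold change of 1.30 (SE 0.25, adjusted p = 0.0124), and it was the only member called past 1 on the log2 scale in this comparison. The adjusted p was 0.0902 with DESeq2, 0.0736 with no filter and 0.0975 without auxin replicate 2, while the log2 fold change over the 4 fits with 1 library left out was between 1.15 and 1.47. Magel2 was also lower in wild-type cells, with a log2 fold change of −0.84 (SE 0.34, adjusted p = 0.0487). That call was lost with DESeq2 (adjusted p = 0.284), with its size factors in edgeR (0.0505), with no filter (0.079), without untreated replicate 1 (0.179) and without wild-type replicate 1 or 2 (0.0698 and 0.223).

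None of the neighbours of Magel2 named here was called after auxin, and Magel2 was not tested against them. Ndn, a related gene that encodes necdin, had 273 and 259 counts in untreated, 275 and 262 in auxin-treated and 141 and 152 in wild-type libraries. Mkrn3, a makorin ring finger gene, had 144 and 163 counts in untreated, 143 and 106 in auxin-treated and 69 and 75 in wild-type libraries. Peg12, a GSK3-binding protein of the Frat family, had 66 and 84 counts in untreated, 75 and 95 in auxin-treated and 159 and 116 in wild-type libraries. The log2 fold changes after auxin were −0.09, −0.41 and 0.08 for Ndn, Mkrn3 and Peg12, with adjusted p-values of 0.713, 0.201 and 0.885. In wild-type cells Ndn and Mkrn3 were lower, with log2 fold changes of −0.85 (SE 0.13, adjusted p = 0.000126) and −1.08 (SE 0.17, adjusted p = 0.000219), and Peg12 was higher by 0.89 (SE 0.21, adjusted p = 0.00337). The ubiquitin ligase gene Ube3a, maternal in neurons and expressed from both copies in most other cells, had 1190 and 1189 counts in untreated, 1299 and 1264 in auxin-treated and 1600 and 1770 in wild-type libraries. It was higher in wild-type cells by 0.51 (SE 0.07, adjusted p = 6.61e-05). The splicing factor gene Snrpn, at 946 to 1214 counts over all libraries, was called in neither comparison (adjusted p = 0.837 and 0.0546). Its adjusted p in wild-type cells was 0.0155 when scaled by library totals and 0.00184 without untreated replicate 1.

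Gnas encodes the stimulatory G protein subunit and several other products from promoters of different imprint on chromosome 2. It had 488 and 489 counts in untreated, 736 and 766 in auxin-treated and 311 and 364 in wild-type libraries. The groups did not overlap, and the untreated libraries differed by 1 count. After auxin Gnas rose from 34.3 ± 0.289 to 49.1 ± 2.13 CPM (SD, n = 2), a log2 fold change of 0.52 (SE 0.08, adjusted p = 0.00552). The call was lost without auxin replicate 2 (adjusted p = 0.0545), with no filter (0.0684) and with mitochondrial mRNA scaling (0.495). In wild-type cells it was lower, with a log2 fold change of −0.52 (SE 0.09, adjusted p = 0.000524). Of the Gnas exon bases, 22% also lie in exons of other genes of the tables, all on the opposite strand, among them the antisense RNA Nespas. Whether the counting used strand is not given in the sources used here, so these counts are uncertain. Nespas itself had 57 and 31 counts in untreated and 46 and 40 in auxin-treated libraries, with a log2 fold change of −0.14 (adjusted p = 0.854). In wild-type libraries it had 24 and 20 counts and was called lower like Gnas, with a log2 fold change of −0.99 (SE 0.35, adjusted p = 0.0294).

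**Figure D4:**
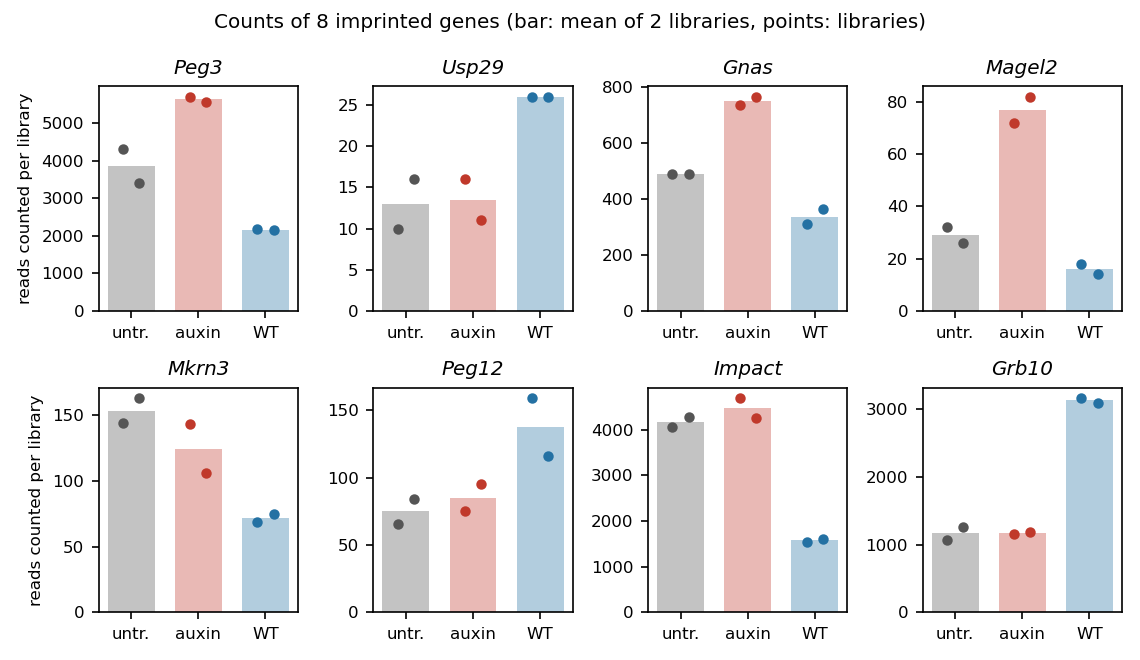
Reads counted in each library (points) and the mean of 2 libraries (bars, from 0) for 8 imprinted genes in untreated, auxin-treated and wild-type cells. Magel2 rises from 26 and 32 counts to 72 and 82 after auxin, Gnas and Peg3 rise as well, and in wild-type cells Impact and Mkrn3 are lowest while Grb10, Peg12 and Usp29 are highest.

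Impact, on chromosome 18, encodes an inhibitor of the GCN2 kinase of the amino acid starvation response and was the member most reduced in wild-type cells. It had 4065 and 4290 counts in untreated, 4692 and 4252 in auxin-treated and 1545 and 1617 in wild-type libraries. Both wild-type libraries lay far below the other 4. Its level was 286 ± 8 CPM in untreated cells compared with 109 ± 2.8 CPM (SD, n = 2), a log2 fold change of −1.39 (SE 0.06, adjusted p = 1.20e-08), while after auxin it was −0.01 (adjusted p = 0.975). Slc38a4 had 3621 and 4009 counts in untreated, 3953 and 4069 in auxin-treated and 4595 and 4578 in wild-type libraries. It was higher in wild-type cells by 0.28 (SE 0.06, adjusted p = 0.00251), and not called without wild-type replicate 1 (adjusted p = 0.0514). Plagl1, a zinc finger factor that acts on other imprinted genes, had 123 and 97 counts in untreated, 171 and 166 in auxin-treated and 68 and 75 in wild-type libraries. Its groups did not overlap, with a log2 fold change of 0.51 after auxin (adjusted p = 0.1, not called) and −0.61 in wild-type cells (adjusted p = 0.0199). The latter call was lost with DESeq2 (adjusted p = 0.111), with no filter (0.0584), without untreated replicate 1 (0.121) and without wild-type replicate 1 or 2 (0.0976 and 0.0502). Zdbf2 and Nnat, at 1560 to 2156 and 295 to 423 counts over all libraries, were called in neither comparison.

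Mcts2 and Zrsr1 are paternal retrogenes that lie in introns of the host genes H13 and Commd1. Mcts2 had 232 and 270 counts in untreated, 194 and 208 in auxin-treated and 159 and 122 in wild-type libraries. After auxin it had the lowest fold change of the members, −0.42 (SE 0.13, adjusted p = 0.082), which was not called. H13, a signal peptide peptidase gene, had 610 and 515 counts in untreated, 677 and 708 in auxin-treated and 384 and 382 in wild-type libraries. Both were lower in wild-type cells, with log2 fold changes of −0.82 for Mcts2 (SE 0.15, adjusted p = 0.000711) and −0.54 for H13 (SE 0.10, adjusted p = 0.000558). Zrsr1 had 476 and 493 counts in untreated, 558 and 484 in auxin-treated and 289 and 319 in wild-type libraries. It was lower in wild-type cells, with a log2 fold change of −0.66 (SE 0.09, adjusted p = 6.30e-05), whereas its host Commd1, a copper metabolism gene with 292 and 344 counts in untreated, 355 and 310 in auxin-treated and 368 and 357 in wild-type libraries, was not called (0.20, adjusted p = 0.109). Exons of Commd1 overlap Zrsr1 on the opposite strand over 9.17% of the Zrsr1 bases, so reads there cannot be assigned without strand.

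Mest and Copg2 overlap at their ends on chromosome 6, over 23.1% and 17.8% of their exon bases. Mest, a hydrolase-like gene of mesoderm, had 292 and 365 counts in untreated, 399 and 418 in auxin-treated and 231 and 232 in wild-type libraries. In wild-type cells it was lower, with a log2 fold change of −0.49 (SE 0.12, adjusted p = 0.00418), and after auxin it was 0.21 (adjusted p = 0.319). Copg2, a coatomer subunit gene, had 1257 and 1473 counts in untreated, 1329 and 1333 in auxin-treated and 1433 and 1446 in wild-type libraries. It was not called in either comparison (−0.14, adjusted p = 0.35, and 0.09, adjusted p = 0.342). Trappc9, the host of Peg13, had 730 and 756 counts in untreated, 798 and 828 in auxin-treated and 714 and 748 in wild-type libraries, with log2 fold changes of 0.03 and −0.01. Inpp5f, a phosphoinositide phosphatase gene, was at 400 to 455 counts and called in neither comparison.

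The genes that keep or remove imprints were measured as a list of 18, all tested. Calls in this list and those below are given from the fit reported alone, without the alternatives. After auxin 0 were called higher and 2 lower, beside 2.56% and 1.64% of all genes, with a list median of −0.11. These were Tet1, which oxidises methylated cytosine, at −0.37 (SE 0.07, adjusted p = 0.00888), and Dppa3, which protects methylation in the early embryo, at −0.46 (SE 0.12, adjusted p = 0.0442). In wild-type cells 15 of 18 were higher and 0 lower, beside 29.9% and 30.7% of all genes, with a list median of 0.51. The 3 with the smallest p-values were Tet1 (1.81), Uhrf1 (0.85), which recruits DNMT1, and Smchd1 (0.71), a chromatin protein of imprinted clusters. Zfp57 was at 3708 and 2868 counts in untreated and 6105 and 6351 in wild-type libraries, a log2 fold change of 0.93 (SE 0.10, adjusted p = 1.09e-05).

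The IGF signalling list had 13 of 14 genes tested. After auxin 2 were higher and 0 lower, beside 2.56% and 1.64% of all genes. These were the adaptor Irs2 at 0.43 (SE 0.10, adjusted p = 0.0281) and the IGF-binding protein Igfbp4 at 0.39 (SE 0.07, adjusted p = 0.0113). In wild-type cells 6 were higher and 7 lower, beside 29.9% and 30.7% of all genes. Igfbp2 (1.47) and the mRNA-binding protein gene Igf2bp1 (0.57) were among those with the smallest p-values on the higher side, and Irs2 (−1.69), Igfbp3 (−1.98) and Igfbp4 (−0.83) on the lower side, with adjusted p-values from 1.66e-08 to 6.31e-06.

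Of 38 further imprinted genes, 35 were in the tables and 21 were tested. After auxin, Jade1 alone was called, at −0.33 (SE 0.07, adjusted p = 0.016), beside 2.56% higher and 1.64% lower of all genes. In wild-type cells 7 were higher and 6 lower, beside 29.9% and 30.7% of all genes. Those with the smallest p-values were Dhcr7 (2.23), Cobl (1.22) and Ago2 (0.62) on the higher side. On the lower side they were Bcl2l1 (−0.98), Blcap (−0.52) and Qpct (−1.22). Of the 6 Dlk1-Dio3 genes, Dio3 alone was called after auxin, higher by 2.37 (SE 0.16, adjusted p = 6.88e-06). It had 57 and 51 counts in untreated and 295 and 306 in auxin-treated libraries. Meg3 (−0.96), Dlk1 (−1.03), Dio3 (−1.07) and Rian (−0.21, adjusted p = 0.0287) were lower in wild-type cells and 0 higher. The shares of all genes called were 2.56% higher and 1.64% lower after auxin, and 29.9% and 30.7% in wild-type cells. The 13 mRNAs of the mitochondrial genome, transcribed by another polymerase, summed to 3314 to 3977 CPM in untreated and 15307 to 15646 CPM in wild-type libraries. All 13 were called higher, beside 29.9% of all genes. The wild-type libraries were close for mt-Co1 (108326 and 109090 counts), which weighs most in the sum, but far apart for mt-Co3 (1897 and 316 counts). After auxin 3 of 12 tested were higher (mt-Co2, mt-Atp6 and mt-Co3, from 0.77 to 1.04) and 0 lower, beside 2.56% and 1.64% of all genes. Scaled to these mRNAs, the median of all genes in wild-type cells fell by 2.09 on the log2 scale and all 35 members were called lower. So were 15235 of all 15778 genes tested, with 73 higher, so these calls show nothing particular to the members. Relative to the median of all genes on that scale, Grb10 stood at 1.45, Peg12 at 0.91, Igf2 at −0.95 and Impact at −1.38.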

How the data were processed

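The polyA RNA-Seq reads of 6 libraries were processed by the authors, who aligned them to mm10 with HISAT2 2.1.0 and counted them per GENCODE gene with Salmon and HTSeq, after their methods and processing notes. The annotation release and the strand setting are not given in the sources used here. The deposited values are whole-number counts without normalization, in 2 tables that hold the same genes. The authors' own columns of DESeq2 results in one table and 2 value columns that match no sample in the other were not used.

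Each comparison was fitted on its own 4 libraries with edgeR 4.0.16 in R 4.3.3 (filterByExpr with a minimum count of 10, TMM, glmQLFit and glmQLFTest, Benjamini-Hochberg adjustment over all genes tested, threshold 0.05, prior count 0.125). The standard error was the log2 coefficient divided by the square root of F. CPM follow the TMM scaling of each comparison. A count of few reads carries a large counting error. Gene positions, exons and RPKM lengths come from GENCODE vM21, and sequences from RefSeq. The procedure was run on simulated data in which far fewer genes changed than were called in wild-type cells. That run therefore says nothing about the calls of that comparison.

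All 37 listed genes were accounted for. The text gives the counts per library of each member called in either comparison, of the non-coding RNAs and of the partners in named pairs, and gives the others by range. From the other lists it names the members called after auxin and, in wild-type cells, the 3 in each direction with the smallest p-value. Exceptions chosen after their values were seen are Zfp57, Nespas, Lum, Col1a1, Acta2, Postn, Crx, Rcvrn, mt-Co1 and mt-Co3 in wild-type cells and all 4 called Dlk1-Dio3 genes. A gene that this rule picks is not reported here. In wild-type cells the marker lists and the mitochondrial mRNAs are given by their counts alone, apart from Acta2, Col1a1, Postn, mt-Co1 and mt-Co3. The members and lists were chosen with earlier results of these data known. The alternatives were DESeq2 1.42.0, its size factors in edgeR, library totals or the mitochondrial mRNAs as the scaling, no filter or 10 counts in each library as the filter, robust dispersion, a replicate block, all 3 groups in one fit, a prior count of 5, a log2 fold change over 1 as well, and each library left out in turn.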

Additional observations from a re-analysis of the deposited data

How the results depend on the processing

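The 2 libraries per group limit every call, and fits with 1 library left out assume that the lone library varies like the other group. Of 35 members, 3 were called after auxin in the fit reported, 2 with DESeq2, 5 with all 3 groups in one fit, 1 with a log2 fold change over 1 required, 1 with mitochondrial mRNA scaling and 0 with no filter, where 11 had an unadjusted p under 0.05. With 1 library left out, 0 to 15 were called, 0 to 11 higher and 0 to 4 lower. None of the 3 calls held without auxin replicate 2, and further members were called without untreated replicate 1. Fewer of all genes tested were also called in the first of these fits, and more in the second. In wild-type cells 24 were called, and with 1 library left out 17 to 26. With a log2 fold change over 1 required 6 were called, 2 higher and 4 lower, and with mitochondrial mRNA scaling 0 were higher and 35 lower. With that scaling 73 of all 15778 genes tested were higher and 15235 lower. The cause of these changes was not tested. The median of the members was −0.11 after auxin and −2.34 in wild-type cells on that scale, and with library totals −0.30 in wild-type cells. Of all genes, 43 were called higher and 12 lower after auxin with no filter, compared with 413 and 264 in the fit reported.

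Same-numbered libraries share only a number: their deviations from the group means correlated at 0.0527 over 16128 genes in the auxin comparison and −0.0286 over 15778 in the wild-type comparison. With the replicate number as a block, 10 members were called after auxin, 9 higher and 1 lower. Beside the 3, these were Cdkn1c, H19, Igf2, Peg10, Plagl1 and Zdbf2 higher and Mcts2 lower. All genes tested were also called more often after auxin, 1081 higher and 849 lower compared with 413 and 264 in the fit reported. Zrsr1 stood at −0.001 after auxin, and no member's call changed in wild-type cells.

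The sign of uncalled members turned as follows after auxin. Ube3a and Zrsr1 were at −0.00727 and −0.01 with DESeq2, −0.00726 and −0.01 with its size factors, −0.02 and −0.02 with all groups in one fit and −0.02 and −0.02 with no filter, and Impact was at 0.00196 with 10 counts in every library and 0.01 with library totals. With mitochondrial mRNA scaling, Igf2r was at −0.10, Airn −0.04, Sgce −0.11, Ube3a −0.17, Peg12 −0.08, Slc22a18 −0.11, Tssc4 −0.14, Trappc9 −0.14 and Zrsr1 −0.16 after auxin. In wild-type cells on that scale the sign turned for the 6 members called higher and for 6 that were not called. Usp29 was at −1.06, Zim1 −2.01, Copg2 −2.0, Ube3a −1.58, Grb10 −0.65, Phlda2 −1.64, Zdbf2 −1.94, Peg12 −1.20, Slc38a4 −1.81, Ascl2 −1.98, Slc22a18 −1.96 and Commd1 −1.89, all of which follow the shift of all genes. With 1 library left out, log2 fold changes after auxin ran from −0.10 to 0.40 for Airn, −0.44 to 0.19 for Ascl2, −0.14 to 0.07 for Commd1, −0.20 to 0.01 for Grb10, −0.06 to 0.05 for Impact, −0.11 to 0.00136 for Inpp5f, −0.12 to 0.25 for Peg12, −0.34 to 0.15 for Phlda2, −0.08 to 0.23 for Sgce, −0.05 to 0.17 for Slc22a18, −0.09 to 0.03 for Slc38a4, −0.15 to 0.06 for Snrpn, −0.02 to 0.07 for Trappc9, −0.01 to 0.07 for Tssc4, −0.00681 to 0.02 for Ube3a, −0.33 to 0.32 for Usp29 and −0.09 to 0.08 for Zrsr1. In wild-type cells they ran from −0.19 to 0.44 for Ascl2, −0.00885 to 0.20 for Copg2, −0.11 to 0.03 for H19, −0.04 to 0.02 for Trappc9 and −0.15 to 0.28 for Zim1.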

Other observations

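Rows named as numbered fragments of KCNQ1OT1 (4 rows) and GNAS-AS1 (3 rows), which were not matched to the mouse genes, had at most 6 counts in any library. The highest was KCNQ1OT1_5, with 3 and 2 counts in untreated, 6 and 0 in auxin-treated and 0 and 5 in wild-type libraries.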
